A study of Mus musculus with 4 samples.

Results

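The macrophages described here are cells of mouse back skin dermis that carry RNA of complement C1q and platelet factor 4 together with scavenger, folate and growth factor receptors of tissue macrophages. A cell was taken as a macrophage when at least 4 of 8 genes, C1qa, C1qb, C1qc, Pf4, Mrc1, F13a1, Csf1r and Folr2, each had at least 2 unique molecular identifiers (UMIs, counts of single RNA molecules). Cells entered with 500 or more genes, 1000 or more UMIs and less than 10% of UMIs in mitochondrial genes. The rule found 1293 macrophages among 13877 kept cells (9.32%). Since the cells were chosen by the measured UMIs of these 8 genes, their levels and the levels of genes that go with them are given below as a description, without a test against other cells.

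The cells came from 4 libraries of single-cell 3' RNA sequencing on the 10x Chromium droplet platform. Mice aged 2 and 18 months were profiled with chemistry version 2, and mice aged 2 and 12 months with version 3, with 1 library at each age in each chemistry and 2 mice per sample by the labels, which do not say whether the mice were pooled. The design text counts 2 and 12 months as young and 18 months as aged. The question the libraries address is how cells of the hair follicle mesenchyme differ with age, and the macrophages entered through the sort.

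All mice were C57BL/6J, were housed singly and carried a tamoxifen-inducible Cre (CreERT2) under the promoter of α-smooth muscle actin, with a RosaYFP reporter by the labels of version 2 and a RosaTDTomato reporter by those of version 3, although the protocol text given with all 4 samples names RosaYFP. All were given tamoxifen on postnatal days 3 and 4, so there was no untreated group. The epidermis was removed and 10000 cells of the dermis were sorted for each library. A sorted cell was positive either for the reporter or for Cd26, and also positive for integrin alpha 9 or Cd200. The Cre marks dermal sheath and its progeny, not blood cells, and neither gate selects macrophages by a marker of their own, so a share of macrophages below is a share of sorted cells and not of skin.

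Resident macrophages of the skin clear dying cells and debris and live beside vessels, nerves and hair follicles. C1q, made of the products of C1qa, C1qb and C1qc, is the recognition unit of the classical complement pathway and binds apoptotic cells. Macrophages of many tissues are commonly split into one kind that carries the hyaluronan receptor Lyve1, the folate receptor Folr2 and the phosphatidylserine receptor Timd4, and another that is rich in major histocompatibility complex (MHC) class II, which presents peptides to T cells. Csf1r is the receptor through which macrophages are kept alive.

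The 3 C1q genes lie next to each other on the minus strand of chromosome 4 in build GRCm38, C1qb at 136880129 to 136886187, C1qc at 136889804 to 136893065 and C1qa at 136895917 to 136898803, within 18675 bases. Lyve1 lies on the minus strand of chromosome 7 at 110850607 to 110863239 and Pf4 on the plus strand of chromosome 5 at 90772435 to 90773383. Promoters are shown for a pair of genes of the rule and for a pair of class II genes, since these sets divide the cells in the results below. Each is the 250 bases before the gene's start in the sense direction, from RefSeq on GRCm38.p6. In the first pair capitals mark GAGGAA, the core of the site of the myeloid factor PU.1, on either strand (TTCCTC when reversed). In the second pair they mark ATTGG, which is CCAAT read on the other strand and is the core of the Y box of class II promoters. The motifs do not overlap each other.
C1qb, chr4:136886201-136886450, minus strand: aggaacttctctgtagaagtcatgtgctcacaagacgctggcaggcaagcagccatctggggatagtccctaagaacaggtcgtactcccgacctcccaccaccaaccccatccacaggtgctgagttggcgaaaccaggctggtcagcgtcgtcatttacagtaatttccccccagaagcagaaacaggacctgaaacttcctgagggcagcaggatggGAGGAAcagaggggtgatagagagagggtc
Pf4, chr5:90772185-90772434, plus strand: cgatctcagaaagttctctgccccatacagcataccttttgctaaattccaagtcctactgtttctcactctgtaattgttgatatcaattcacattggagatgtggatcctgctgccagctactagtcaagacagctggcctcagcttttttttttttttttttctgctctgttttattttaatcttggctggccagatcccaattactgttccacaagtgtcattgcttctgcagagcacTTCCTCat
H2-Aa, chr17:34287824-34288073, minus strand: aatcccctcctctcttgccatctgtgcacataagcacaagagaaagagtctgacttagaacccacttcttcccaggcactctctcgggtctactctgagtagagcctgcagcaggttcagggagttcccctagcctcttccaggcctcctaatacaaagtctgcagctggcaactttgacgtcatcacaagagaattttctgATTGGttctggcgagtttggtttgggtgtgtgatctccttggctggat
H2-Eb1, chr17:34305617-34305866, plus strand: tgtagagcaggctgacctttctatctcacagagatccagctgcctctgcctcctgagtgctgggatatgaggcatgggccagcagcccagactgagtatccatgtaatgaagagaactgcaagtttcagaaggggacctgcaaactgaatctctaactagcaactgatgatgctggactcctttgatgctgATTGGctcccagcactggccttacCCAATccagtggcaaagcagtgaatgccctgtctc
GAGGAA began 30 bases before the start of C1qb and, reversed, 8 bases before that of Pf4. ATTGG began 48 bases before the start of H2-Aa, and in H2-Eb1 it stood at 59 bases and, reversed, at 35 bases. Of 32851 promoters in the same table, 23.3% held GAGGAA and 33.8% held ATTGG in the same window, so a match describes these letters and is not a site of binding.

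The files held 1906, 2727, 7023 and 5474 barcodes in the order 2 and 18 months of version 2, then 2 and 12 months of version 3, which is kept for every run of 4 values below. Labels give 2604, 3776, 6998 and 5415 recovered cells, so the version 2 files hold fewer than their labels and the version 3 files slightly more. The version 3 libraries shared 84 barcodes, the version 2 libraries 7, and other pairs at most 1, and 3 and 1 macrophages of version 3 carried a barcode shared with another library. Without those barcodes the version 3 share differed by 0.394 percentage points between ages in place of 0.280. Macrophages of both version 2 libraries had Ddx3y UMIs of the Y chromosome (7 and 36) and no Xist, whereas those of version 3 had Xist (7450 and 4365 UMIs) and no Ddx3y, so chemistry, sex and labelled reporter go together and cannot be told apart. Because label and protocol differ on the reporter of version 3, what eYFP counts mean there is not settled. The eYFP entry was counted in all 4 libraries, at 810, 2385, 295 and 304 CPM (counts scaled to a common total of UMIs per library) in macrophages and 1183, 2932, 1756 and 1716 CPM in the other kept cells.

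Macrophages were 20 of 1729 kept cells (1.16%, exact 95% binomial interval 0.708 to 1.78) at 2 months and 83 of 2506 (3.31%, 2.65 to 4.09) at 18 months in version 2. In version 3 they were 679 of 5555 (12.2%, 11.4 to 13.1) at 2 months and 511 of 4087 (12.5%, 11.5 to 13.6) at 12 months. The share was thus higher by 2.16 percentage points (1.27 to 3.03) at 18 months, while at 12 months the difference was 0.280 points (-1.04 to 1.62). Intervals cover counting error only, and the shares were not tested over the 4 libraries.

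Set against the other class II-bearing cells instead of all kept cells, the macrophages had another order. Cells outside the rule with at least 3 of H2-Aa, H2-Ab1, H2-Eb1 and Cd74 at 5 or more UMIs, called class II high below, numbered 106, 347, 97 and 319, and 15, 44, 32 and 110 of them had a UMI of Cd207, the langerin of Langerhans cells. Macrophages were 15.9% and 19.3% of macrophages plus class II high cells in version 2, a difference of 3.43 points (-4.71 to 10.1). In version 3 they were 87.5% at 2 months and 61.6% at 12 months, which is 25.9 points lower at 12 months (interval of the signed difference -29.9 to -21.8). The plot of shares by denominator gives both.

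**Figure D1:**
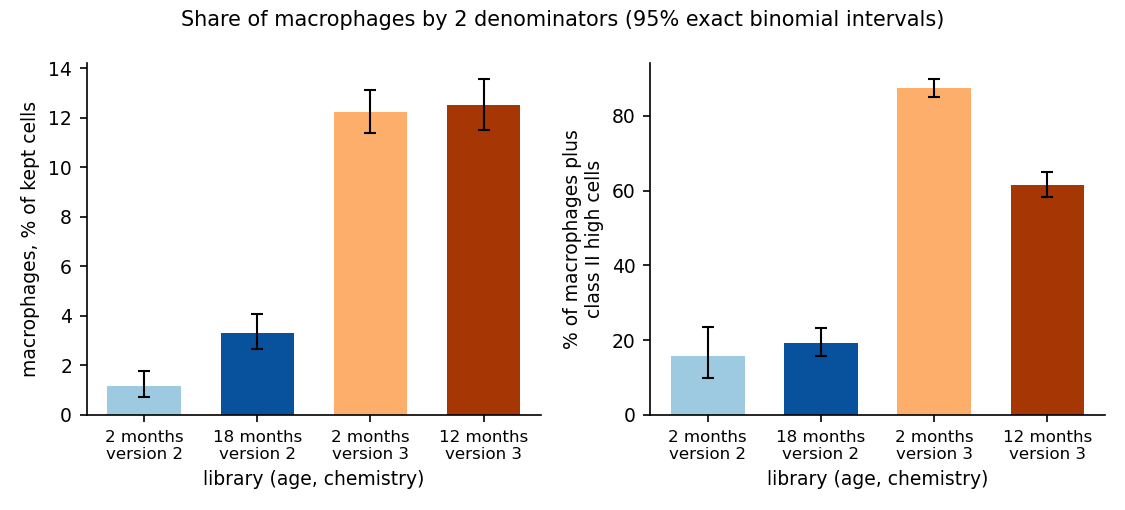
Share of macrophages in each library, with exact 95% binomial intervals as bars. The left axis is the percentage of kept cells (1.16, 3.31, 12.2 and 12.5%) and the right the percentage of macrophages plus class II high cells (15.9, 19.3, 87.5 and 61.6%).

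The version 2 macrophages were few and carried more RNA of other lineages. The median share of a macrophage's UMIs in 8 fibroblast markers (such as Col1a1, Col3a1 and Dcn) was 1.00%, 0.439%, 0.103% and 0.0868%, against 0.315%, 0.683%, 0.878% and 1.19% in the other kept cells. At least 3 genes of a fibroblast, sheath and muscle, keratinocyte or endothelial list stood at 3 or more UMIs in 18 (90%), 56 (67.5%), 151 (22.2%) and 81 (15.9%) macrophages. In version 2, leaving out such cells left 2 and 27 macrophages and a difference of 0.962 points between ages. Whether free RNA or doublets add to this was not tested. Median depth was 8277, 8124, 8374 and 6082 UMIs in macrophages and 6305, 6657, 12561 and 12720 in other kept cells, and the macrophages together held 191468, 711891, 6399438 and 3798254 UMIs.

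Markers that the rule did not use went with the label. Ptprc, the pan-leukocyte CD45, stood at 94.0, 115, 287 and 285 CPM in macrophages and at 10.3, 28.8, 7.48 and 26.5 CPM in the other kept cells. Adgre1, which encodes F4/80, stood at 183, 198, 350 and 367 CPM against 5.81, 15.6, 3.22 and 8.53. The dendritic cell genes Flt3 (0, 2, 1 and 3 UMIs), Xcr1 (0, 0, 0 and 3), Clec9a (0, 0, 1 and 0) and Itgae (0, 1, 0 and 1) were at or near 0 in macrophages. The dendritic type list of 12, which also holds class II genes, Il1b and Itgax, summed to 10717, 8720, 3098 and 5354 CPM in macrophages and 1518, 4926, 481 and 1951 CPM in other kept cells, with 5, 5, 9 and 6 of its genes higher in macrophages and 7, 2, 2 and 1 at 0. In class II high cells without Cd207 the list summed to 18834, 29990, 21511 and 26952 CPM. Summed over 8 markers, mast cell RNA was 0, 8.4, 3.0 and 3.2 CPM, and that of 6 T and NK cell markers was 31.3, 0, 0.8 and 2.1 CPM. The leukocyte and macrophage markers thus went with the label, alongside fibroblast RNA in version 2 and class II RNA in all 4 libraries.

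Of the genes of the rule, the C1q genes were present in nearly every macrophage. C1qa stood at 1269, 1382, 4776 and 3581 CPM in macrophages and at 2.96, 5.14, 17.9 and 7.20 CPM in other kept cells. C1qb stood at 1541, 1614, 4313 and 4174 CPM, and C1qc at 992, 1361, 2734 and 2373 CPM. Both version 3 libraries were higher than both version 2 libraries for each of these genes, a difference that goes with chemistry.

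Pf4, a heparin-binding chemokine best known from platelets, stood at 1943, 2680, 3749 and 5652 CPM and was higher at the older age in both chemistries, 1.38-fold (1.23 to 1.55) at 18 months and 1.51-fold (1.48 to 1.54) at 12 months. Folr2, a folate receptor, stood at 73.1, 233, 957 and 461 CPM. F13a1, the A chain of coagulation factor XIII, stood at 198, 584, 2279 and 1301 CPM. The ages differed in opposite directions between chemistries for both: Folr2 was 3.19-fold higher (1.85 to 5.96) at 18 months and 2.07-fold lower (1.97 to 2.19) at 12 months, and F13a1 2.94-fold higher (2.11 to 4.22) and 1.75-fold lower (1.70 to 1.81). Mrc1, the mannose receptor CD206, stood at 381, 622, 2617 and 2309 CPM, and Csf1r at 240, 329, 539 and 507 CPM, with 12 to 2 month ratios in version 3 of 0.882 and 0.940. The plot of the 8 genes sets these levels beside the other kept cells.

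**Figure D2:**
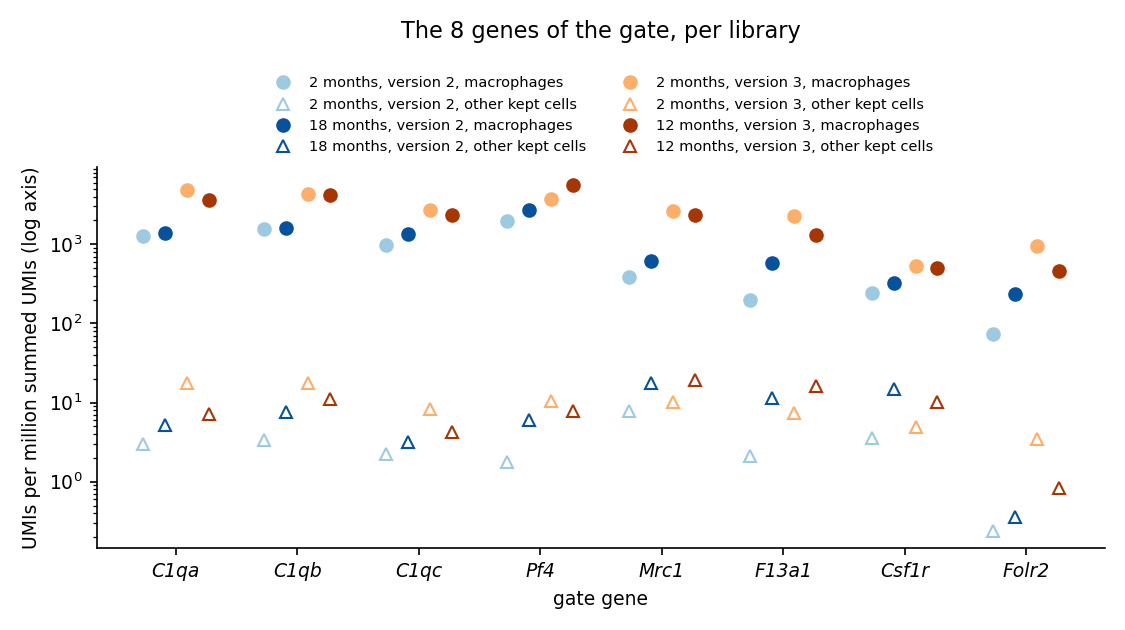
Level of the 8 genes of the rule in each library, in CPM on a log axis, in macrophages and in the other kept cells. Macrophages lie far above other cells for every gene, which the rule fixes, and C1qa ranges from 1269 to 4776 CPM in macrophages over the 4 libraries.

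The number of genes of the rule that passed per cell also varied. All 8 passed in 0, 25, 472 and 239 macrophages (0, 30.1, 69.5 and 46.8%). At the edge of the rule, cells that passed 4 genes numbered 3, 7, 22 and 23, with medians of 18, 24, 22.5 and 32 UMIs summed over the 8 genes. Cells just outside, with 3 genes, numbered 4, 11, 17 and 21, with medians of 10, 12, 14 and 16.

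Outside the rule, 20 genes were named by how far their level in macrophages stood above that in other kept cells in all 4 libraries, and the smallest of the 4 ratios ranged from 12.4 (Fyb) to 326 (Ccl12). They included the chemokines Ccl12, Ccl8 and Ccl6, the receptor of complement fragment C5a (C5ar1, smallest ratio 202), the membrane protein Ms4a7 (193), the Fc receptors Fcgr1 (117) and Fcgr3, the lipid sensor Trem2 (79.3), the scavenger receptor Stab1, the lectin Clec10a and properdin (Cfp), which stabilises the alternative complement convertase. Ccl8, a ligand of chemokine receptors on monocytes and T cells, stood at 2961, 10815, 12084 and 12952 CPM in macrophages, lowest in the 2 month library of version 2. The class II high cells without Cd207 held far less of it (8.33, 74.96, 48.7 and 39.1 CPM).

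Class II high cells held little of 2 of these genes. Ms4a7 stood at 548, 435, 620 and 1018 CPM in macrophages and at 34.2, 8.75, 3.48 and 13.5 CPM in class II high cells without Cd207. Stab1 stood at 78.3, 153, 300 and 267 CPM against 1.85, 1.90, 3.48 and 0.449. Other macrophage genes, outside those 20 and chosen after their values were seen, were shared with class II high cells. Cd209d, a lectin of the DC-SIGN family, stood at 329, 420, 978 and 780 CPM against 718, 728, 669 and 737, and Mgl2, a galactose-type lectin, at 465, 374, 1128 and 999 CPM against 737, 773, 1230 and 1594. Lyz2, lysozyme, stood at 3463, 4353, 3407 and 4735 CPM against 2275, 3689, 2910 and 2872. Taken across all libraries, levels of Ms4a7 and Stab1 did not overlap between these cells, while those of Cd209d, Mgl2 and Lyz2 did. Within every library Mgl2 was lower and Lyz2 higher in macrophages, whereas Cd209d was lower in version 2 and higher in version 3.

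Class II RNA varied widely among the macrophages. Cells were thinned to 3000 UMIs each, which leaves 20, 81, 631 and 463 macrophages, to compare detection at equal depth. C1qa, a gene of the rule and so near saturation by choice, was found in 90.0%, 96.3%, 97.9% and 98.5% of macrophages, against 0.7%, 0.8%, 5.0% and 1.6% of fibroblast-marked cells of the same libraries, which should lack it. H2-Ab1, a class II beta chain, was found in 90.0%, 82.7%, 48.7% and 68.7%, against 15.5%, 25.6%, 10.6% and 9.6% of fibroblast-marked cells. The UMIs of H2-Aa, H2-Ab1, H2-Eb1 and Cd74 summed per 3000 had a median of 47.5, 38, 5 and 19, and none was found in 5%, 2.47%, 19.3% and 7.56% of macrophages. In the 2 month library of version 3 the lower quartile was 1 such UMI and the 90th percentile 87.

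Lyve1 was found in 0%, 1.2%, 48.8% and 11.9% of thinned macrophages and in at most 0.6% of fibroblast-marked cells in any library. In the unthinned sums Lyve1 stood at 0, 14, 3725 and 264 UMIs, and the 14 UMIs of the 18 month library came from 4 cells, with 8 in 1 of them. With 20 macrophages at 2 months of version 2, 0 UMIs of Lyve1 allow up to 3 UMIs among the 191468 summed there. The exact binomial interval of the thinned share in that library was 0 to 16.8%, below the 48.8% at 2 months of version 3. The libraries of 2 months thus differed in Lyve1, and chemistry, sex and labelled reporter go with that difference. The difference of Lyve1 between ages is read from version 3 alone. Its higher side is 1 library, which the other 2 month library did not match.

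In both version 3 libraries the Lyve1-bearing macrophages were poor in class II. After thinning, 308 of 631 macrophages of 2 months and 55 of 463 of 12 months had a Lyve1 UMI. H2-Aa averaged 0.955 UMIs per thinned cell with Lyve1 and 8.50 without at 2 months, and 1.62 and 9.38 at 12 months. H2-Eb1 averaged 0.581 with and 7.08 without at 2 months, and 0.945 and 9.21 at 12 months. Across macrophages of a library the Spearman correlation of Lyve1 with H2-Ab1 was -0.45 at 2 months and -0.26 at 12 months, given as a description, since the cells share a library and their thinned depth.

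Retnla, a secreted product of alternatively activated macrophages, averaged 9.40 UMIs with Lyve1 and 0.598 without at 2 months, and 4.78 and 0.990 at 12 months. Fcna, a lectin of the complement system, averaged 2.19 and 0.211 at 2 months, and 0.436 and 0.0907 at 12 months. Timd4 averaged 0.383 and 0.0248 at 2 months, and Cd209f, another DC-SIGN-like lectin, 4.83 and 1.36. F13a1 (10.6 and 5.10) and Folr2 (3.95 and 1.81) were also higher with Lyve1 at 2 months, and C1qa less so (17.6 and 13.5). Csf1r (1.80 and 1.67) and Stab1 (0.990 and 0.985) were nearly level at 2 months. At 12 months both were higher with Lyve1, Csf1r at 2.18 and 1.75 and Stab1 at 1.31 and 0.826. F13a1, Folr2, C1qa and Csf1r are genes of the rule, so their values are conditioned on it.

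Cytokine and chemokine genes split unevenly. Il1b, the cytokine interleukin 1 beta, averaged 0.107 with Lyve1 and 1.46 without at 2 months, and 0 and 1.60 at 12 months. Ccl12 averaged 0.357 and 1.22 at 2 months, and 1.22 and 1.63 at 12 months. Ccl8 averaged 14.1 with and 62.6 without Lyve1 at 2 months, but 48.8 and 43.9 at 12 months, so its split at 2 months did not recur at 12 months. Cxcl2 (3.81 with and 3.69 without), Ccl2 (1.57 and 1.67) and Ccl7 (2.90 and 3.53) were close at 2 months, and at 12 months Cxcl2 averaged 2.84 with and 6.94 without, and Ccl7 4.45 and 4.84. Cd36, a scavenger receptor for oxidised lipids, went with Lyve1 at both ages, 0.406 and 0.108 at 2 months and 1.76 and 0.417 at 12 months. None of these splits was tested, since cells are not replicates.

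**Figure D3:**
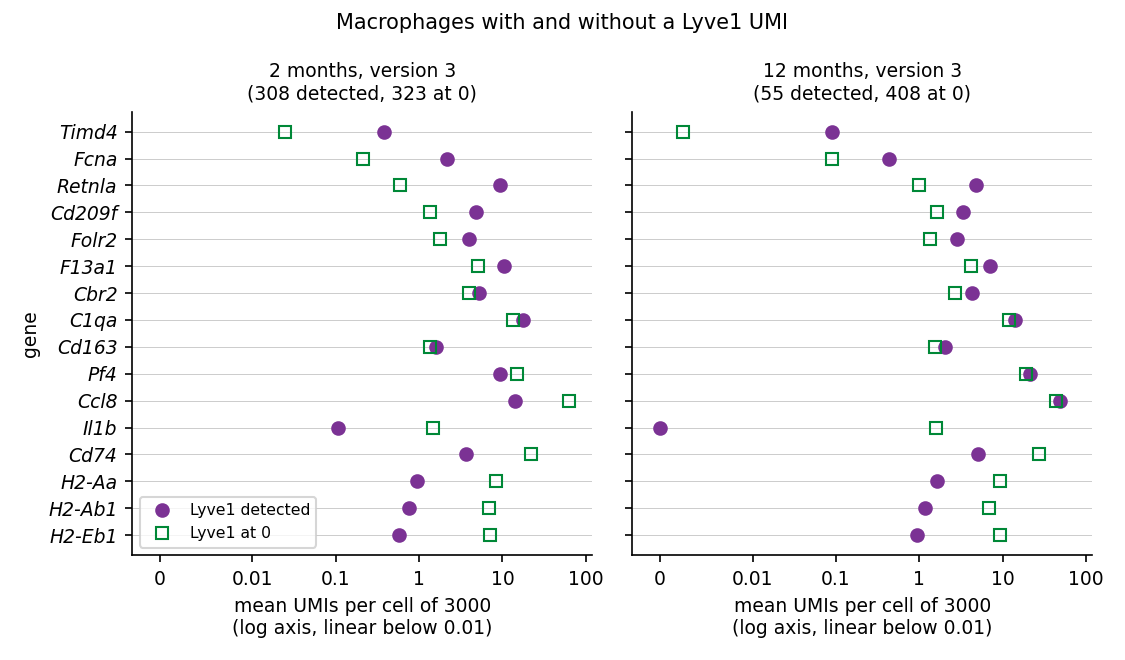
Mean UMIs per macrophage thinned to 3000 UMIs, on an axis that is logarithmic above 0.01 and linear below, for macrophages with at least 1 Lyve1 UMI and those with none, in the 2 and 12 month libraries of version 3. Class II genes lie lower in cells with Lyve1 in both libraries (H2-Aa 0.955 against 8.50 at 2 months and 1.62 against 9.38 at 12 months).

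Ccr2, the chemokine receptor of cells of monocyte origin, had a Spearman correlation with H2-Ab1 of 0.24 over the 81 macrophages of 18 months, 0.30 over the 631 of 2 months in version 3 and 0.34 over the 463 of 12 months. Genes of the rule were correlated with H2-Ab1 in the same 3 libraries by -0.14, -0.46 and -0.37 for F13a1, -0.11, -0.35 and -0.40 for Folr2 and -0.054, -0.24 and -0.30 for Mrc1. These values are conditioned on the rule and support nothing, and those of 18 months are weak.

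Between ages in version 3, Lyve1, Fcna, Timd4 and Retnla were lower at 12 months, while Cd36, which also went with Lyve1, was higher (64.7 and 170 CPM). Lyve1 stood at 582 CPM at 2 months and 69.5 CPM at 12 months, 8.37-fold lower (exact conditional Poisson 95% interval 7.39 to 9.52). Fcna stood at 367 and 40.5 CPM, 9.05-fold lower (7.69 to 10.7), and Timd4 at 60.9 and 3.95 CPM, 15.4-fold lower (9.24 to 27.8). Retnla stood at 1565 and 567 CPM, 2.76-fold lower (2.64 to 2.89), and at 12 months 768 of its 2152 UMIs came from 1 cell. Of 11001 genes with at least 20 UMIs in 1 of these libraries, 4.95% were 2-fold or more lower at 12 months and 2.05% 2-fold or more higher, and of 4512 such genes in version 2, 2.57% were that much lower at 18 months and 7.78% higher.

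Cd163, the haemoglobin scavenger receptor, did not share this difference, with 458 and 474 CPM and a ratio of 1.03 (0.974 to 1.10). Thinned macrophages with a Lyve1 UMI were 48.8% and 11.9%, a difference of -36.9 percentage points. Cd5l, a secreted scavenger protein of resident macrophages, had 204 UMIs in 107 macrophages at 2 months and 3 UMIs at 12 months. Fibroblast marker shares of these macrophages were low and close at both ages (medians 0.103% and 0.0868%), and without macrophages of at least 0.5% such UMIs the log2 ratio of Lyve1 was -3.14. The number of class II high cells in the same libraries was 97 and 319, and its part in these ratios was not tested.

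Class II genes were higher at 12 months in version 3. H2-Aa stood at 1475 and 2601 CPM, 1.76-fold higher (1.71 to 1.81), H2-Ab1 at 1227 and 1975 CPM, 1.61-fold (1.56 to 1.66), H2-Eb1 at 1238 and 2500 CPM, 2.02-fold (1.96 to 2.08), and Cd74, the invariant chain, at 4022 and 7483 CPM, 1.86-fold (1.83 to 1.89). Thinned macrophages with an H2-Ab1 UMI were 20.03 percentage points more at 12 months, while fibroblast-marked cells with one were 10.6% and 9.6%. Il1b stood at 250 and 556 CPM, 2.22-fold higher (2.08 to 2.37), and was found in 10.3% and 19.9% of thinned macrophages against 0.5% and 1.1% of fibroblast-marked cells. Ccr2 stood at 72.8 and 129 CPM, 1.78-fold higher (1.56 to 2.02).

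Dendritic type markers were mostly higher at 12 months in version 3 as well, whereas Langerhans type markers were split. Of 7 dendritic type genes tested, class II genes among them, 6 were higher at 12 months in version 3. Their median log2 ratio was 0.82, against -0.22 in version 2. Of 6 Langerhans type genes, 3 were higher and 3 lower in version 3, at a median of -0.43, with Cd207 among the higher. Cd207 stood at 0, 11.2, 13.1 and 47.1 CPM in macrophages (0, 8, 84 and 179 UMIs) and rose in the fit over all libraries that is described below (edgeR log2 fold 1.99, SE 0.36, adjusted p = 0.0019). Other kept cells held 3.21, 17.6, 12.2 and 65.5 CPM of it. The part of these cells' RNA in the class II difference was not tested.

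In version 2 the class II genes did not differ this way. H2-Aa stood at 5035 and 4328 CPM, 0.860-fold at 18 months (0.799 to 0.925), H2-Ab1 at 4904 and 3687 CPM (0.752, 0.698 to 0.811), and Cd74 at 10534 and 9975 CPM (0.947, 0.901 to 0.995). All version 2 levels lay above all version 3 levels. The other kept cells of version 2 also held more class II RNA at 18 months, with H2-Aa at 671 and 2199 CPM, and in version 3 at 183 and 831 CPM.

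**Figure D4:**
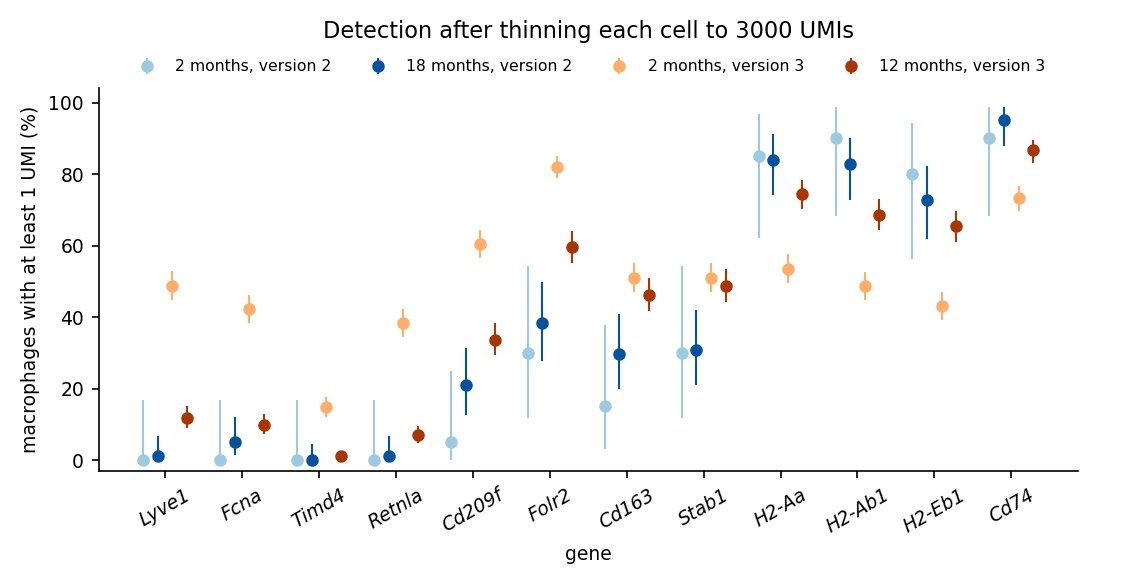
Percentage of macrophages with at least 1 UMI of each gene after every cell was thinned to 3000 UMIs, per library. Lyve1 was found in 0, 1.2, 48.8 and 11.9% and H2-Ab1 in 90.0, 82.7, 48.7 and 68.7%. C1qa, a gene of the rule that is not plotted, lay between 90.0 and 98.5%, which the rule fixes.

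The one comparison with 2 libraries on each side set both older libraries against both libraries of 2 months. It used UMIs summed over the macrophages of each library, in a model with a chemistry term (edgeR quasi-likelihood test, Benjamini-Hochberg adjustment). The design text counts 12 months as young, so that library stands on the older side here by its age alone. With 12 months counted as young instead, 6 of the genes followed reversed direction. Genes with an adjusted p under 0.05 are said to rise or fall. Of 10693 genes tested, 60 rose (0.561%) and 72 fell (0.673%), together 1.23%, and 792 had an unadjusted p under 0.05. The fit has 1 residual degree of freedom, and p-values measure the spread between these libraries. DESeq2 called 1 and 8 genes, and leaving out the 2 month library of version 3 left none. Fits of 3 libraries carry no chemistry term, since no residual degree of freedom would remain, so chemistry enters their folds. Among the genes followed in such fits, the call was kept in 5 cases (Pla1a in 2 and Akr1c18, Lyve1 and Fcna in 1 each), lost in 133 and reversed in 6.

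The levels of the called genes were also set beside those in the other kept cells. Of the 132 genes, 97 were lower in macrophages than in other kept cells in at least 1 library of their higher side. A fold of the same sign in the other kept cells was found for 116, and there the same fit called none of 15387 genes (1950 at an unadjusted p under 0.05). Neither count was taken over all 10693 genes tested, so neither is read as a trait of the called genes. Among the keratinocyte markers Krt10, Krt1, Krtdap, Sfn and Perp fell, 5 of 8, at a median log2 fold of -1.69, and their summed level in macrophages was 789, 240, 812 and 153 CPM against 32842, 6147, 5299 and 4279 CPM in other kept cells. The smooth muscle genes Myh11 (log2 fold -3.84) and Cnn1 (-3.17) and the papilla gene Bmp4 (-1.34) fell, and the fibroblast genes Dcn (1.18) and Lum (1.02) rose. The part of other cells' RNA in these folds was not tested.

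The genes described next had a level in macrophages at least that in other cells on the higher side. Their ratios also had the same sign in both chemistries. Both conditions held for 17 genes that rose and 13 that fell, counts that were likewise not taken over all genes tested. Over all genes tested the median log2 ratio was -0.13 in version 2 and -0.11 in version 3, the median log2 fold was 0.01, and 54.0% of genes differed in one direction in both chemistries.

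Chemokines were among the genes that rose. Ccl12, a ligand of Ccr2, stood at 78.3, 452, 244 and 466 CPM (15, 322, 1560 and 1770 UMIs), higher at the older age in both chemistries by 5.77-fold (3.45 to 10.4) and 1.91-fold (1.78 to 2.05). The log2 fold was 1.60 (SE 0.30, adjusted p = 0.0033), and both older libraries lay above both 2 month libraries. It was 1.005 without the 2 month library of version 2 and 2.65 without that of version 3, and the call was lost in every fit of 3 libraries, with 5 genes of the rule and with DESeq2. Ccl7, another Ccr2 ligand, stood at 178, 1823, 1047 and 1419 CPM, with a log2 fold of 1.80 (SE 0.43, adjusted p = 0.028), and again the older libraries lay above the younger. Its fold was 0.72 without the 2 month library of version 2 and 3.28 without that of version 3. The Ccl7 call was lost in every fit of 3 libraries, with DESeq2, with another normalization (RLE size factors), with 3 or 5 genes of the rule, and without the 3% of cells with the most UMIs or the shared barcodes.

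Cxcl13, the chemokine that draws B cells, stood at 5.22, 8.43, 29.1 and 105 CPM and rose by a log2 fold of 1.92 (SE 0.33, adjusted p = 0.0012). It rests on version 3, since version 2 held 1 and 6 UMIs, and in the 12 month library 109 of its 400 UMIs came from 1 cell. Without the 12 month library its log2 fold was -1.30.

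Nlrp3, Clec4d and Itgax also rose, while none of the 21 Fc and Toll-like receptor genes did. Nlrp3, the sensor of an inflammasome, had 0, 9, 59 and 163 UMIs in 0, 9, 45 and 70 macrophages, and a log2 fold of 2.37 (SE 0.38, adjusted p = 0.00056). Clec4d, a C-type lectin for microbial glycolipids, had 1, 6, 98 and 278 UMIs and a log2 fold of 2.31 (SE 0.33, adjusted p = 0.00015), but -0.51 without the 12 month library. Itgax, the integrin CD11c, had 0, 6, 14 and 42 UMIs and a log2 fold of 2.48 (SE 0.56, adjusted p = 0.020), and class II high cells without Cd207 held more of it (46.3, 44.9, 63.8 and 54.8 CPM against 0, 8.43, 2.19 and 11.1). Nlrp3 and Itgax had 0 UMIs in the 2 month library of version 2, so their fitted folds depend on the prior count there.

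Of the other genes named, Tnip3 (log2 fold 1.61) and Bcl2a1b (1.82), targets and brakes of NF-kB signalling and apoptosis, stood higher in class II high cells than in macrophages in all libraries, with Tnip3 at 62.7, 91.3, 23.0 and 84.3 CPM in macrophages and 152, 400, 463 and 582 CPM in class II high cells without Cd207. Vcam1, an adhesion molecule for leukocytes, rose by 1.69, from 20.9 to 56.2 CPM in version 2 and from 46.4 to 141 CPM in version 3. The Vcam1 fold was 0.65 without the 12 month library. Cyp4f18, a hydroxylase of leukotriene B4, rose by 2.26 on 1, 10, 39 and 107 UMIs, and the fold was 1.29 without the 12 month library. Cldn5, an endothelial claudin, is called at 3.19, yet all 7 of its UMIs at 18 months and 19 of 20 at 12 months came from 1 cell each.

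The genes that fell include few known from macrophages. Irf7, the interferon regulatory factor that amplifies type I interferon, stood at 20.9, 8.43, 39.4 and 10.5 CPM (4, 6, 252 and 40 UMIs). It fell by 1.71 on the log2 scale (SE 0.36, adjusted p = 0.011), with both older libraries below the younger of their chemistry. In version 2 that direction rests on 4 UMIs in 4 macrophages and 6 UMIs in 6. The Irf7 call was lost with DESeq2 and with a rule that needed more genes. The fold of Irf7 was -1.01 without the 2 month library of version 3. C3, the central complement component, stood at 67.9, 8.43, 158 and 25.0 CPM (13, 6, 1014 and 95 UMIs), with a log2 fold of -2.62 (SE 0.30, adjusted p = 1.1e-05). In the 2 month library of version 2, 12 of its 13 UMIs came from 1 cell. C3 is also made by fibroblasts, and without macrophages of at least 0.5% fibroblast marker UMIs its log2 fold was -0.38.

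Pla1a (1, 1, 198 and 1 UMIs), Akr1c18 (1, 0, 173 and 4), Inmt (4, 0, 111 and 3), Chrdl1 (3, 1, 113 and 2) and Gabra3 (1, 0, 29 and 0) fell with log2 folds of -4.51 to -6.66, which depend on the prior count where a library is at 0. Each of them was almost confined to 42 to 49 cells (13 for Gabra3) of the 2 month library of version 3. Without the macrophages of at least 0.5% fibroblast marker UMIs these genes were too low to be tested, and the log2 folds of Pi16 and Smpd3, which fell by 1.92 and 1.91, were 0.06 and 0.13. Pi16 marks adventitial fibroblasts. That setting called 103 genes that rose and 63 that fell, 87 of them among the 132.

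Lyve1 (log2 fold -2.33, SE 0.48, adjusted p = 0.0085) and Fcna (-2.50, SE 0.47, adjusted p = 0.0030) fell in the same fit, but only through version 3, since version 2 held 0 and 14 UMIs of Lyve1 and 0 and 12 of Fcna, higher at the older age. DESeq2 gave 0.60 and 0.42 for them, neither called. Siglec1, sialoadhesin, had 1, 6, 376 and 67 UMIs and fell by 1.46, and it too was higher at 18 months in version 2. The fitted fold of these 3 genes thus does not hold in both chemistries.

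**Figure D5:**
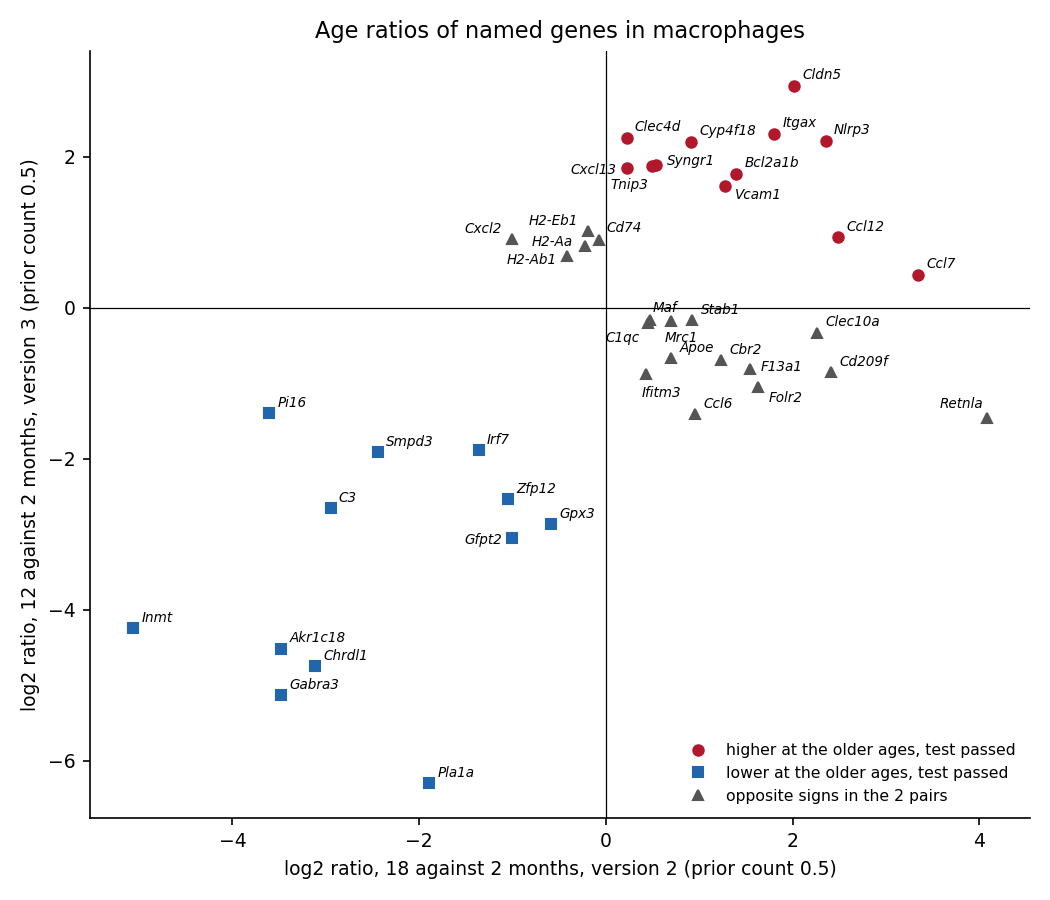
Log2 ratio of CPM in macrophages at 18 against 2 months in version 2 (x axis) and at 12 against 2 months in version 3 (y axis) for named genes, with a prior count of 0.5, so that a gene at 0 UMIs in a library rests on that prior and is no bound. Ccl12 and Ccl7 lie above 0 on both axes, while F13a1 (1.54 and -0.81) and Folr2 (1.63 and -1.05) lie on opposite sides.

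By gene list, few members passed, and each list is read against the 0.561% that rose and 0.673% that fell over all genes. Members that rose or fell are named here whether or not they met both conditions on level and sign given above. Of 16 chemokine ligands tested, Ccl3, Ccl7, Ccl12 and Ccl17 rose and none fell, with a list median log2 fold of 1.06 against 0.01 over all genes. Ccl17 did not meet both conditions. The list median was 1.57 in version 2 and 0.27 in version 3, and in fits of 3 libraries it ranged from 0.29 without the 2 month library of version 2 to 2.101 without that of version 3. Ccl3, a ligand of Ccr1, stood at 73.1, 142, 63.9 and 155 CPM with a log2 fold of 1.29 (SE 0.26), and both older libraries lay above both younger. Ccl2 stood at 26.1, 784, 623 and 735 CPM and did not pass (log2 fold 1.76, adjusted p = 0.11), with 1 low library, the 2 month one of version 2. The chemokine list also had a median of 1.53 in the other kept cells.

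Of 17 lipid handling genes, Spp1, Fabp4 and Cd36 rose, with a list median of 0.64, and Trem2, Lpl and Apoe did not pass. Cd36 stood at 20.9, 30.9, 64.7 and 170 CPM (log2 fold 1.39, SE 0.29, adjusted p = 0.011), but its fold was -0.57 without the 12 month library. Fabp4, a fatty acid carrier, had 1, 35, 115 and 229 UMIs (log2 fold 1.97, SE 0.32, adjusted p = 0.00066). Spp1, osteopontin, had 2, 10, 41 and 179 UMIs (log2 fold 2.82, SE 0.40, adjusted p = 0.00014) and was found in 5.0%, 1.2%, 1.0% and 6.7% of thinned macrophages against 7.7%, 2.7%, 1.4% and 3.4% of fibroblast-marked cells, so only at 12 months did its share stand above the background. Without the 12 month library the Spp1 fold was 0.96. Gpnmb, a lysosomal glycoprotein, was the 1 gene of 24 in the lysosome list to rise, on 1, 34, 62 and 124 UMIs (log2 fold 1.98).

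Of 22 interferon-stimulated genes, Irf7 fell and none rose, at a list median log2 fold of -0.34. In version 3, 20 of 22 were lower at 12 months, with a median log2 ratio of -0.67. There 7004 of 11001 genes with at least 20 UMIs were lower, at a median of -0.12. In version 2 the median of the 22 was -0.14, against -0.13 over all genes tested. Of the 9 list genes with at least 20 UMIs in a version 2 library, 6 were higher at the older age and 3 lower, at a median of 0.43. A lower level of the list than of other genes was thus seen in version 3 only. Rsad2, viperin, stood at 143 and 42.9 CPM in version 3 (3.34-fold lower, 2.82 to 3.96) and had 1 and 19 UMIs in version 2, and Ifitm3 stood at 1509 and 823 CPM in version 3 (1.83-fold lower, 1.76 to 1.91) and 616 and 832 CPM in version 2. The version 2 interval of the ratio lay above 1 for Ifitm3 (1.11 to 1.66) and included 1 for Rsad2 (0.812 to 212).

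Of 14 class II presentation genes none rose or fell, with a list median of 0.30 in the fit, -0.20 in version 2 and 0.75 in version 3, where 12 of 14 were higher. None of 21 Fc and Toll-like receptor genes, 16 iron and heme genes, 13 alternative activation genes or 12 heat shock genes passed. The heat shock genes were all lower at 12 months in version 3 (12 of 12, median log2 ratio -0.54, for instance Hsph1 at 573 and 274 CPM), beside the 7004 of 11001 genes that were lower there, and their median was 0.00 in version 2. Of 15 cytokine genes Il1rn, the interleukin 1 receptor antagonist, rose, at 67.9, 88.5, 46.9 and 116 CPM (log2 fold 1.15, adjusted p = 0.034).

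Of 24 immediate early genes Socs3, a feedback inhibitor of cytokine receptors, rose, at 110, 237, 81.9 and 175 CPM (log2 fold 1.21, SE 0.24, adjusted p = 0.0056), by 2.16-fold and 2.13-fold in the 2 chemistries. Both older libraries lay above both younger ones, and 23 of 24 members had a fold above 0 at a list median of 0.47, against 51.5% of all genes tested. The list median was 0.56 in the other kept cells, and 0.053 in macrophages without the 2 month library of version 2. Of 22 lineage transcription factors Bhlhe40 rose, at 20.9, 99.7, 13.9 and 46.1 CPM (log2 fold 1.93). It did not stand at or above the level of the other kept cells in both older libraries. Spi1, which encodes PU.1, stood at 110, 124, 301 and 270 CPM, and Maf, a factor of mature macrophages, had a log2 fold of 0.24 and did not pass. Of 13 complement components C3 fell, and of 16 growth factors Bmp2 fell, on 0, 8, 330 and 40 UMIs, with no UMI in the 2 month library of version 2.

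Of 20 NF-kB genes Nlrp3 and Tnip3 rose, of 18 matrix turnover genes Timp1 and Plaur, of 17 senescence-associated genes Plaur, and of 15 cell cycle genes Ccnb2. Cdkn1a, p21, stood at 157, 153, 220 and 302 CPM, and Cdkn2a had 0, 13, 17 and 26 UMIs, and neither passed. Mki67, a proliferation marker, was found in 0%, 2.5%, 4.0% and 3.5% of thinned macrophages against 3.0%, 1.3%, 1.5% and 1.6% of fibroblast-marked cells. Of 22 identity genes Lyve1, Siglec1 and Fcna fell and none rose, and of 13 chemokine and complement receptor genes Itgax rose.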

How the data were processed

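The 4 files hold UMI counts per gene and cell barcode for 27999 genes, deposited by the authors as whole numbers without normalization. Per the submitters' processing notes, STAR, Cell Ranger 2.0.1 and Seurat 2.1.0 were used on mm10 and GRCm38.p5, with roles not stated, and per the file headers the version 3 matrices came from software version 3.0.1. Cell calling settings are not given in the sources used here. The macrophages and the gene lists were chosen with earlier results of these data known. No doublets were removed in the main analysis.

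Macrophage counts were summed per library. CPM are these sums scaled to 1000000 UMIs per library. Shares have Clopper-Pearson and ratios exact conditional Poisson 95% intervals, for counting error only (scipy 1.17.1), and a count of 0 allows up to 3 UMIs. The fit used edgeR 4.0.16 (glmQLFit, TMM, filterByExpr) in R 4.3.3 on all 4 libraries with chemistry as covariate, checked on simulated counts, and DESeq2 1.42.0 as an alternative. No source says how the libraries of the same age relate beyond the labelled mice, so p-values measure the spread between libraries. Detection was compared after thinning cells to 3000 UMIs, leaving out 0, 2, 48 and 48 macrophages. Fibroblast-marked cells are kept cells outside the rule, not class II high, with at least 3 fibroblast markers at 3 or more UMIs each.

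Named genes were the 8 of the rule, the 20 with the largest smallest ratio to other kept cells, up to 12 per direction past the test with the same sign in both chemistries and a level at least that of other cells, and members of the lists. Retnla, Cd5l, Timd4, Cd36 within Lyve1 cells and the cell counts behind single genes were described after their values were seen. Promoters come from RefSeq on GRCm38.p6, gene positions from GENCODE on GRCm38. Other gates, filters, normalizations and libraries left out were tried.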

Additional observations from a re-analysis of the deposited data

Results flagged for a closer look

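Of 506 genes in the lists or named, 55 had age ratios in macrophages with opposite signs in the chemistries and counting intervals on opposite sides of no change. This count was not taken over all genes tested, so it is not read as a trait of these genes. Over all genes tested, 54.0% had the same sign in both chemistries. The difference between the chemistries was not tested. Of the 55 genes, the 18 that were followed here are given with their values. Of the genes of the rule, the log2 ratio at 18 months in version 2 and at 12 months in version 3 was 0.45 and -0.20 for C1qc, 0.70 and -0.18 for Mrc1, 1.54 and -0.81 for F13a1 and 1.63 and -1.05 for Folr2. Of receptors and enzymes it was 1.23 and -0.70 for Cbr2 (carbonyl reductase 2), 0.93 and -0.17 for Stab1, 2.26 and -0.33 for Clec10a and 2.41 and -0.86 for Cd209f. For secreted products it was 0.96 and -1.41 for Ccl6, 0.70 and -0.67 for Apoe (apolipoprotein E), and 4.08 and -1.47 for Retnla, where 30 of the 31 UMIs at 18 months came from 1 cell and the 2 month library of version 2 had none. It was 0.43 and -0.87 for the interferon-stimulated gene Ifitm3 and 0.48 and -0.17 for the transcription factor Maf.

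The class II genes and Cxcl2 had the reverse order of signs. The log2 ratios in version 2 and version 3 were -0.22 and 0.82 for H2-Aa, -0.41 and 0.69 for H2-Ab1, -0.19 and 1.01 for H2-Eb1, -0.079 and 0.90 for Cd74 and -1.004 and 0.91 for Cxcl2. The 2 month library of version 2 that all the version 2 ratios share held 20 macrophages, 13 of them with at least 0.5% of their UMIs in fibroblast markers. Without such macrophages the version 2 log2 ratio of Cxcl2, with a prior count of 0.5, was 4.38. That value rests on the 7 macrophages left at 2 months and 44 at 18 months.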

How the results depend on the processing

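No paired analysis was possible because the groups share only a replicate number of 1 in label order, and chemistry already enters the fit. The version 2 difference in share was 0.962 points without macrophages bearing another lineage's genes and 3.43 over macrophages plus class II high cells, which gave -25.9 in version 3; the other settings run for shares moved neither difference beyond its interval. The H2-Ab1 difference of 20.03 points was 14.1 unthinned. Genes that rose and fell, 60 and 72, were 1 and 8 with DESeq2, 27 and 52 with RLE size factors, 91 and 101 with no filter, 25 and 56 with 3 genes of the rule, 22 and 39 with 5, 28 and 29 without the 3% of cells with the most UMIs, and 0 and 0 both with 12 months counted as young (797 at an unadjusted p under 0.05) and without the chemistry term (110). Leaving out 1 library at a time, without the chemistry term since 3 libraries leave no residual degree of freedom with it, gave 0 to 5 and 0 to 13. Added after seeing the data, leaving out macrophages of at least 0.5% fibroblast marker UMIs gave 103 and 63, and leaving out shared barcodes 40 and 37. Direction reversed for Clec4d (-0.51), Cxcl13 (-1.30) and Cd36 (-0.57) without the 12 month library, for Pi16 (0.064) and Smpd3 (0.13) without fibroblast-rich macrophages, and for Lyve1 (0.60) and Fcna (0.42) with DESeq2. With 12 months counted as young it reversed for Lyve1 (8.81), Fcna (8.59), Siglec1 (0.82), Plac8 (1.40), Bmp2 (8.002) and Clec4e (-0.52), and without the 2 month library of version 3 for Lyve1 (9.19), Fcna (8.56) and Siglec1 (1.48). Over the libraries left out in turn the log2 folds ranged up to 3.13 for Clec4d, 3.60 for Cxcl13 and 2.39 for Cd36 and down to -3.89 for Lyve1, -3.52 for Fcna and -2.14 for Siglec1. The causes were not tested. Apart from libraries left out, values of named genes kept direction and call in 194 cases, lost the call in 182 and reversed in 10, and list medians moved in 8 of their cases and did not in 112. With 1 library left out, named genes kept the call in 5 cases, lost it in 133 and reversed in 6, and list medians moved in 33 cases and did not in 15. The fit without macrophages bearing another lineage's genes was not run, since 2 remained in 1 library. The 20 macrophages of version 2 at 2 months limit every version 2 ratio.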

Other observations

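Several genes of low abundance differed between ages in version 3 through few cells and were chosen after their values were seen. Cxcl3, a neutrophil chemokine, had 6 UMIs at 2 months and 234 at 12 months, in 3 and 18 macrophages, with 70 UMIs in 1 cell. Slc7a11, the cystine transporter, had 49 and 283 UMIs in 13 and 32 macrophages, with a log2 fold of 3.39 in the fit. Gdf3, a ligand of the transforming growth factor family, had 14 and 116 UMIs in 9 and 65 macrophages and was not tested, with no UMI in version 2. Clec4e, the lectin Mincle, had 117 and 467 UMIs in 26 and 53 macrophages, and 11 and 26 in version 2, with a log2 fold of 2.13. Plac8, seen in monocytes, had 440 UMIs in 161 macrophages at 2 months and 12 UMIs in 7 at 12 months of version 3, against 1 and 9 UMIs in version 2.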
